A study of Mus musculus with 102 samples.

Results

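Amotl2, Camsap3, Krt80, Ly6g6c, Plaat3 and Tec are 6 genes of mouse epidermal stem cells whose daily mean level was higher under calorie restriction (CR) than on control diet in adult mice and in aged mice. They were picked for that difference, so their diet differences are given below as a description and were not tested. The array annotation held 17097 genes with a probe set of their own, of which 13383 were bright enough to be tested. The 6 (0.0448% of those tested) are all the genes that passed an adjusted p under 0.05 for a higher level under CR at both ages. Against them stood 15 genes, 0.112%, that passed for a lower level at both ages. Each of the 6 was measured by 1 probe set (a group of short probes for 1 transcript), so no second probe set of a gene could be compared with the first. The probe sets are 1452387_PM_a_at for Amotl2, 1432464_PM_a_at for Camsap3, 1419619_PM_at for Krt80, 1422749_PM_at for Ly6g6c, 1451611_PM_at for Plaat3 and 1460204_PM_at for Tec.

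All mice carried the Per1-Venus BAC transgene, in which a fluorescent protein reports on the clock gene Per1, and had a C57B6/J background. Control mice ate freely, and CR mice received 30% less food for 25 weeks, after 3 weeks in which food was cut by 10% per week. Adult mice were 47 to 57 weeks old and aged mice 83 to 97 weeks old, and cells of the epidermis were taken at zeitgeber times (ZT) 0, 4, 8, 12, 16 and 20 h. There were 23 arrays of adult control, 30 of adult CR, 24 of aged control and 25 of aged CR mice, with 3 to 6 arrays in each of the 24 combinations of age, diet and time. The labels give neither the sort or gate behind the name epidermal stem cells nor the sex of the animals. The design text speaks of 4 mice per time point and diet, while no label ties an array to a mouse or a day of collection, so p-values measure the spread between these arrays. Levels are log2 values, in which a step of 1 is a doubling of fluorescence, and levels of different probe sets are not comparable.

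The epidermis is renewed from stem cells in its basal layer and in the hair follicles, whose daughters leave the layer and differentiate into the barrier. The 6 genes belong to unrelated families. Amotl2 encodes an angiomotin-like scaffold of cell junctions that binds the Hippo pathway effector YAP and holds it out of the nucleus, and the gene is itself a known target of YAP. Camsap3 binds the minus ends of microtubules and anchors them away from the centrosome in epithelial cells. Krt80 is a type II keratin of intermediate filaments found at desmosomes in differentiating epithelia. Ly6g6c is a small membrane-anchored protein of the Ly6/uPAR family, encoded in the major histocompatibility complex. Plaat3 is a phospholipase A and acyltransferase best known from fat tissue, where it frees fatty acids from phospholipids. Tec is the founding member of a family of cytoplasmic tyrosine kinases that act below antigen and cytokine receptors, mostly in blood cells.

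Because the genes were grouped by a shared difference, their promoters are shown to let them be compared. RefSeq on GRCm38.p6 gave a promoter window for 4 of the 6, and Camsap3 and Krt80 are named only. Each line gives the 250 bases before the annotated start, and capitals mark matches to the motifs searched. Amotl2 lies at chr9:102717554-102717803 on the plus strand, Ly6g6c at chr17:35067075-35067324 on the plus strand, and Tec at chr5:72868449-72868698 on the minus strand. Plaat3 had 2 starts close together, and the window of the first, chr19:7557209-7557458 on the plus strand, is printed.
Amotl2: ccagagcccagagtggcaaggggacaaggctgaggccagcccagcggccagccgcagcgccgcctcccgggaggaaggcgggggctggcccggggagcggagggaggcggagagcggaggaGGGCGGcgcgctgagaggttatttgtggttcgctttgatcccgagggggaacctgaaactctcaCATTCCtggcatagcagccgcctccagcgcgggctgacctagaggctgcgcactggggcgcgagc
Ly6g6c: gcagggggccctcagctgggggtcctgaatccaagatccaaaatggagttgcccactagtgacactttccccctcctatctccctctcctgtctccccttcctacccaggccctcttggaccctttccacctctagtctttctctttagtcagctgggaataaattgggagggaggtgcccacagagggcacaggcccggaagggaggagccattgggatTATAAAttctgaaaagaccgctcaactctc
Plaat3: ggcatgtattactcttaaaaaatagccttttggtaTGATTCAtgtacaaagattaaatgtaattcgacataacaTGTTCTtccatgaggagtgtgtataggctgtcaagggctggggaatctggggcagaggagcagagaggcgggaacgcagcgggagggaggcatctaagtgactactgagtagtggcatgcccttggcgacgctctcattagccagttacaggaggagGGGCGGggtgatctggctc
Tec: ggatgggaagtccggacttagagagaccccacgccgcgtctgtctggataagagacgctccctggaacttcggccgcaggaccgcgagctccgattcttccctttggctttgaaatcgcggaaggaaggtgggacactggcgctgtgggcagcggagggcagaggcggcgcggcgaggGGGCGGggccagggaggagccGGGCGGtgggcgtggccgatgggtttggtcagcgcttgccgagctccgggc

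Motifs were searched on both strands of windows of 300 bases, the printed bases and the 50 that follow the start. The Amotl2 window held a GC box (GGGCGG) at -129 and, at -65, a match on the minus strand to the TEAD site GGAATG, the element through which YAP acts. GC boxes occurred in 35.7% and TEAD letters in 14.7% of the 32851 RefSeq windows. The Ly6g6c window held a TATA box (TATAAA) at -30, a motif in 13.6% of windows. The Plaat3 window held an AP-1 site (TGANTCA, in 7.81% of windows) at -215, the glucocorticoid receptor half-site TGTTCT (19%) at -176 and a GC box at -19. The Tec window held GC boxes at -72 and -51. No match overlapped another. The clock elements E-box (CACGTG, in 7.15% of windows) and D-box (TTANGTAA, in 2.32%) and the full glucocorticoid receptor site (in 0.00913%) had no match in these windows. No motif was common to all 4 windows, and a match is a string of letters, not a shown binding site.

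Among all genes tested, 33.9% were higher under CR at both ages by any amount. In adult mice 0.553% passed in either direction and 43 (0.321%) for a higher level under CR, and in aged mice 11 (0.0822%) did so. Ranked by the smaller of its differences at the 2 ages over all genes tested, Ly6g6c stood at position 2, Plaat3 at 11, Tec at 24, Amotl2 at 29, Camsap3 at 31 and Krt80 at 65. Aldh1a7, at position 1 with 0.52 ± 0.15 (SE) in adult and 0.57 ± 0.15 in aged mice, was not called at both ages and is not among the 6. The genes next below Krt80 were Gas7 (0.24 ± 0.15 and 0.28 ± 0.15), Hs3st3b1 (0.24 ± 0.11 and 0.26 ± 0.11) and Tppp (0.24 ± 0.08 at both ages). Krt80 differed by about as much as these, with a smaller SE. When each array of the groups of up to 5 was left out in turn, all 6 genes stayed called in 65 of 96 fits, and Camsap3 was lost in the other 31. Without aged CR ZT 4 replicate 1, Krt80 was lost as well, which left 4.

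Of the junction and cytoskeleton genes, Amotl2 in adult mice had its lowest, median and highest array at 7.23, 7.80 and 8.27 on control diet and at 7.37, 8.10 and 8.76 under CR. In aged mice the corresponding levels were 7.50, 7.90 and 8.44 on control diet and 7.72, 8.30 and 9.13 under CR. The diets overlapped over the day at both ages, with the whole CR range shifted upwards. The daily mean was 0.36 ± 0.07 (SE) higher under CR in adult mice, 1.28-fold, and 0.33 ± 0.07 higher in aged mice, 1.26-fold.

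Camsap3 in adult mice ranged from 7.43 over a median of 8.45 to 9.001 on control diet and from 8.43 over 8.78 to 9.36 under CR. In aged mice it ranged from 8.06 over 8.33 to 9.02 on control diet and from 8.13 over 8.75 to 9.14 under CR. The lowest adult control array, at ZT 0, lay far under all other arrays, while the lowest adult CR array lay near the control median. Camsap3 was 0.37 ± 0.08 (SE) higher under CR in adult and 0.32 ± 0.08 higher in aged mice, 1.29-fold and 1.25-fold.

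Krt80 had the narrowest spread of the 6 genes, with a residual SD between arrays of a group of 0.18. Its lowest, median and highest adult levels were 9.61, 9.89 and 10.21 on control diet and 9.70, 10.20 and 10.47 under CR. Its aged levels were 9.62, 9.87 and 10.24 on control diet and 9.77, 10.07 and 10.62 under CR. The median CR array thus lay just under the highest control array in adult mice and farther under it in aged mice. The difference was the smallest of the 6, with 0.26 ± 0.05 (SE) in adult and 0.24 ± 0.05 in aged mice, 1.2-fold and 1.18-fold.

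Ly6g6c, the surface protein, had the widest spread, with a residual SD of 0.39, and the largest difference. Adult levels ran from 9.45 over 10.00 to 11.21 on control diet and from 9.72 over 10.63 to 11.28 under CR. Aged levels ran from 9.30 over 10.08 to 10.88 on control diet and from 9.89 over 10.74 to 11.39 under CR. The medians of the diets lay well apart, whereas the highest adult arrays of both diets nearly met. Ly6g6c was 0.48 ± 0.11 (SE) higher under CR in adult and 0.53 ± 0.11 higher in aged mice, 1.39-fold and 1.44-fold. With the mean of differentiated epidermis markers as a covariate the adult difference was 0.29, below those of Amotl2, Camsap3, Plaat3 and Tec, and the call at both ages was lost.

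Plaat3, the phospholipase, was measured by a rather dim probe set, brighter than 46.5% of all probe sets, a range in which array values understate changes. Adult levels ran from 4.73 over 5.26 to 5.71 on control diet and from 4.94 over 5.56 to 6.46 under CR. Aged levels ran from 4.63 over 5.05 to 6.02 on control diet and from 4.89 over 5.61 to 6.09 under CR. In aged mice 1 control array, at ZT 0, came close to the highest CR array. Plaat3 was 0.40 ± 0.08 (SE) higher under CR in adult and 0.43 ± 0.09 higher in aged mice, 1.32-fold and 1.35-fold.

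Tec, the kinase, ran from 5.74 over 6.25 to 6.70 on control diet and from 5.91 over 6.52 to 7.37 under CR in adult mice. In aged mice it ran from 5.49 over 6.15 to 6.99 on control diet and from 6.14 over 6.46 to 7.25 under CR. The lowest aged CR array lay at about the median of the aged controls. Tec was 0.35 ± 0.07 (SE) higher under CR in adult and 0.41 ± 0.07 higher in aged mice, 1.28-fold and 1.32-fold. Over the 6 genes, the aged difference less the adult one lay between -0.05 for Camsap3 and 0.06 for Tec, with SEs of 0.07 to 0.15.

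**Figure D1:**
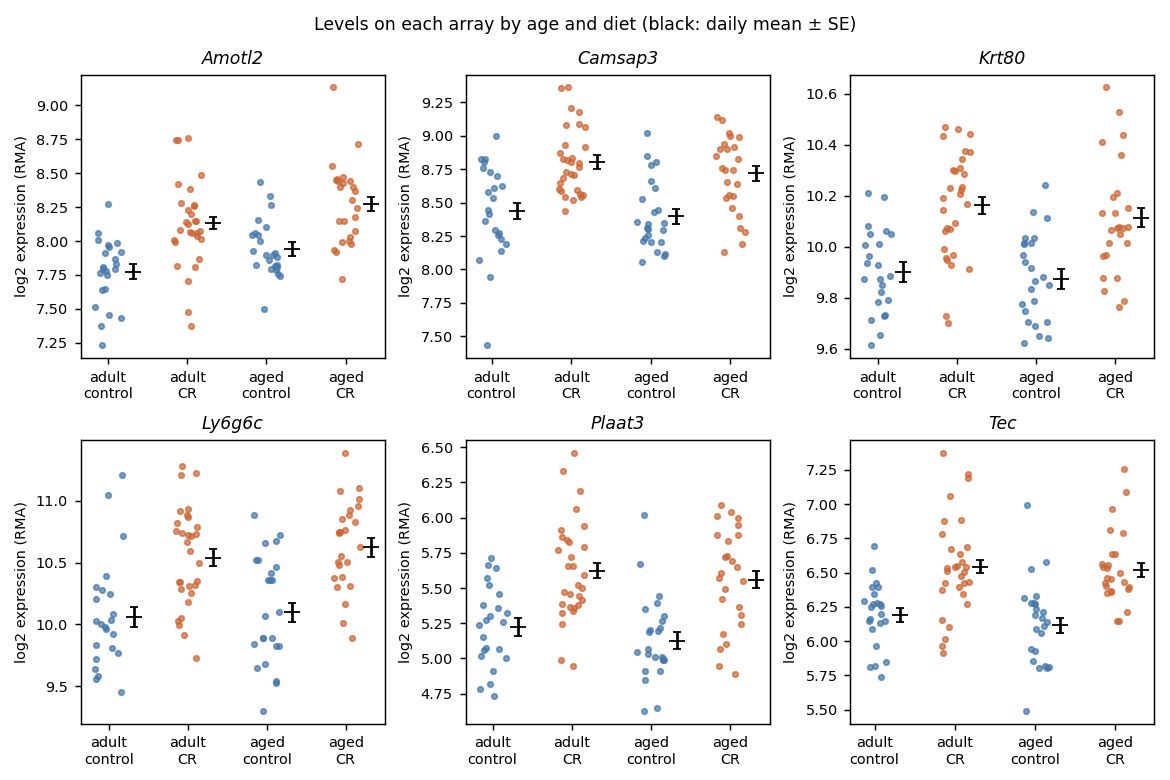
Log2 level of each gene (vertical axis, 1 panel per gene, each with its own range) on each array, by age and diet on the horizontal axis. Blue points are control and orange points CR arrays; the black mark beside each cloud is the daily mean with its SE. In every panel both CR means stand above both control means while the points overlap, for example Krt80 with a highest adult control array of 10.21 and a lowest adult CR array of 9.70.

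By time of day, the mean under CR was above the control mean in 72 of 72 combinations of gene, age and time point. Over all genes tested, 0.269% (36 genes) had this order at all 12 combinations of age and time point. In adult mice alone 3.91% of genes had it at 6 of 6 time points and in aged mice 1.17%. The rule used these same differences, so nothing is read from the count. In 14 of the 72 combinations every CR array lay above every control array. In adult mice these were Tec at ZT 0 (background 2.63% of genes), Amotl2, Krt80 and Plaat3 at ZT 8 (6.29%), Amotl2, Krt80 and Tec at ZT 12 (1.19%) and Ly6g6c at ZT 20 (0.628%). In aged mice they were Tec at ZT 0 (1.3%), Plaat3 and Tec at ZT 4 (4.58%), Krt80 at ZT 8 (2.93%), Tec at ZT 12 (0.8%) and Ly6g6c at ZT 20 (0.276%). The groups of all 6 genes overlapped at ZT 4 in adult mice (0.217%) and at ZT 16 at both ages (0.149% in adult and 3.67% in aged mice). Camsap3 overlapped everywhere.

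Amotl2 stood farthest apart at ZT 12, the start of darkness under the usual convention for ZT. Adult control arrays read 7.65, 7.78, 7.80 and 7.98 there, and adult CR arrays 8.20, 8.49, 8.74, 8.74 and 8.76. Aged control arrays read 7.81, 7.82, 7.90 and 8.44, and aged CR arrays 8.37, 8.40, 8.46 and 9.13. The adult groups were separate, whereas in aged mice 1 control array reached into the CR range and 1 CR array stood far above the others. The differences were 0.78 ± 0.17 (SE), 1.72-fold, and 0.60 ± 0.18, 1.51-fold. At the other time points the Amotl2 difference lay between 0.16 ± 0.17 (ZT 16) and 0.37 ± 0.19 (ZT 8) in adult mice. In aged mice it lay between 0.18 ± 0.16 (ZT 20) and 0.37 ± 0.17 (ZT 0).

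Tec stood apart at ZT 0 and ZT 12 at both ages. At ZT 0 the adult control arrays read 6.15, 6.16, 6.20 and 6.25, and the adult CR arrays 6.43, 6.88, 7.06, 7.19 and 7.22. Aged control arrays at ZT 0 read 6.11, 6.24, 6.27 and 6.32, and aged CR arrays 6.40, 6.55, 6.96, 7.09 and 7.25. The control arrays lay tightly together at both ages and below the widely spread CR arrays. The differences at ZT 0 were 0.77 ± 0.17 (SE) in adult and 0.62 ± 0.17 in aged mice. At ZT 12 the adult control arrays read 5.74, 5.85, 5.96 and 6.27, and the adult CR arrays 6.37, 6.47, 6.51, 6.54 and 6.68. Aged control arrays at ZT 12 read 5.49, 5.85, 5.93 and 6.09, and aged CR arrays 6.40, 6.43, 6.63 and 6.81. There the control arrays were at their lowest of the day and again wholly below CR. The differences at ZT 12 were 0.56 ± 0.17 and 0.73 ± 0.18. The Tec difference was within its SE of 0 at ZT 8 in adult mice (0.05 ± 0.19) and at ZT 20 in aged mice (0.09 ± 0.16).

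Krt80 stood farthest apart at ZT 8 at both ages. Adult control arrays read 9.71, 9.73 and 9.94, and adult CR arrays 10.07, 10.19, 10.30 and 10.34. Aged control arrays read 9.69, 9.75 and 9.94, and aged CR arrays 10.07, 10.13, 10.19 and 10.21. The groups were separate at both ages. The differences were 0.44 ± 0.14 (SE) and 0.36 ± 0.14. At ZT 20 in aged mice the difference was 0.02 ± 0.12, the smallest of the 72. Camsap3 was farthest apart at ZT 4, by 0.58 ± 0.18 in adult and 0.47 ± 0.21 in aged mice. Its adult control arrays read 7.94, 8.14, 8.61 and 9.001 at that time, and the 6 adult CR arrays lay between 8.80 and 9.35 with the highest control array among them.

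Ly6g6c was separate at ZT 20 at both ages. Adult control arrays read 9.58, 10.00, 10.03 and 10.30 at ZT 20, and adult CR arrays 10.31, 10.34, 10.66, 10.72 and 10.93. Aged control arrays read 9.89, 9.89, 10.36, 10.52 and 10.66, and aged CR arrays 10.74, 10.77, 10.83, 10.96 and 11.08. The gap between the groups was narrow, with the lowest CR array next to the highest control array at both ages. The differences were 0.62 ± 0.26 (SE) and 0.61 ± 0.24. In aged mice its difference was largest at ZT 8, at 0.72 ± 0.29, where the lowest CR array of 9.89 lay under the highest control array of 10.10. Plaat3 differed most at ZT 0, by 0.62 ± 0.20 in adult and 0.54 ± 0.20 in aged mice, with overlapping groups. It was separate at ZT 8 in adult mice, with 4.73, 5.08 and 5.15 on control diet and 5.32, 5.52, 5.77 and 5.79 under CR. At ZT 4 in aged mice it read 5.01, 5.07, 5.19 and 5.20 on control diet and 5.50, 5.57 and 5.88 under CR. The differences at these points were 0.61 ± 0.23 and 0.53 ± 0.23.

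**Figure D2:**
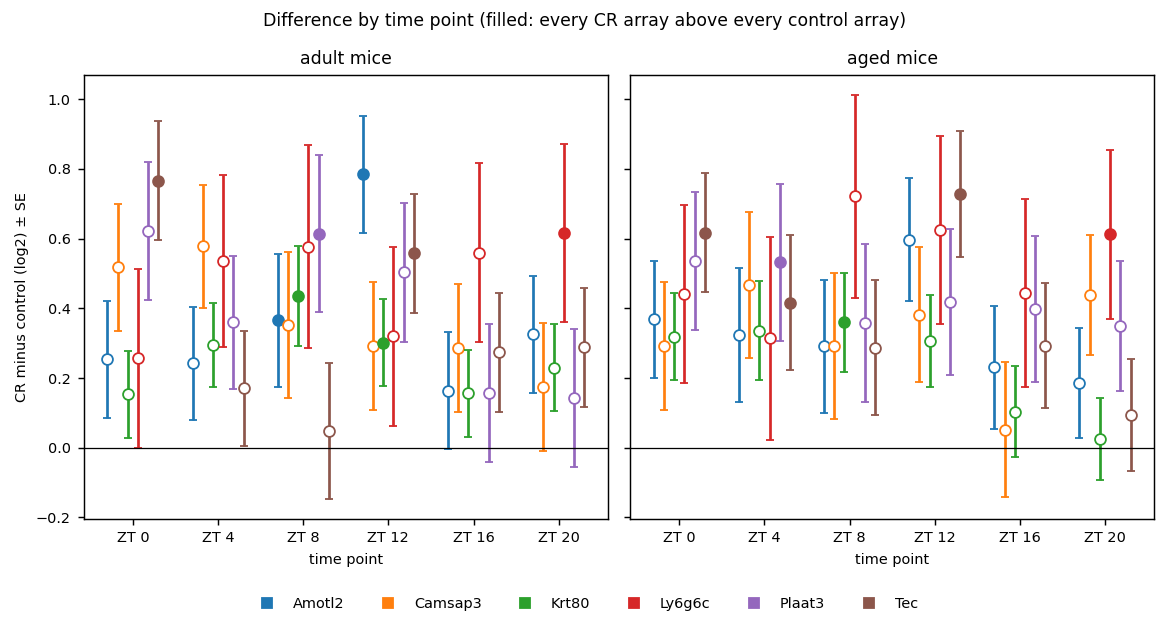
CR minus control (vertical axis, log2, ± SE from the fit over all arrays) for each gene at each time point (horizontal axis), adult mice left and aged mice right. Filled points mark combinations in which every CR array lay above every control array. All 72 points lie above 0, from 0.02 for Krt80 at ZT 20 in aged mice to 0.78 for Amotl2 at ZT 12 in adult mice.

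Whether the diet difference depended on time of day, which the daily mean does not fix, was tested with limma's F test over the 6 differences at each age. None of the 6 genes passed in adult mice, where 0.0747% of genes (10) did, or in aged mice, where 0.142% (19) did. Tec came closest, with an unadjusted p of 0.0547 (adjusted p = 0.893) in adult and 0.112 (adjusted p = 0.648) in aged mice, and Amotl2 followed in adult mice with 0.133 (adjusted p = 1). The other unadjusted p-values ran from 0.351 to 0.888 in adult and from 0.301 to 0.976 in aged mice. This test has little power for small changes. On simulated data it found 13% (adult) and 7.5% (aged) of genes whose diet difference rose and fell by 0.3 over 24 h. With 0.6 it found 74.5% and 84.5%. In the simulation more genes were changed at once than passed here, with noise independent between genes. These shares may therefore overstate the power in these data.

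Within each condition a 24 h rhythm was fitted as a cosine curve, whose amplitude is the distance from mean to peak. None of the 6 passed in any condition, while of all genes 1.17% passed in adult mice on control diet, 8.08% in adult mice under CR, 5.6% in aged controls and 4.87% in aged CR mice. Tec had fitted peaks at ZT 20.8, 20.8, 21 and 22.1 in these conditions, in the order just given, with amplitudes of 0.14 ± 0.07 (SE), 0.26 ± 0.08, 0.27 ± 0.07 and 0.17 ± 0.07. Its adjusted p was 0.481, 0.0943, 0.0555 and 0.287, again by limma's F test. Ly6g6c had fitted peaks at ZT 23.2, 22.6, 23.1 and 22.5 and amplitudes of 0.21 ± 0.12, 0.20 ± 0.10, 0.33 ± 0.11 and 0.26 ± 0.08, with adjusted p of 0.556, 0.338, 0.112 and 0.14. For both genes the fitted peaks of all 4 conditions fell late in the night, although no single curve passed. Plaat3 had peaks at ZT 23.1, 3.57, 22.6 and 23.7 with adjusted p from 0.236 to 0.629. Krt80 peaked at ZT 8.78 in adult CR with an amplitude of 0.15 ± 0.05 (adjusted p = 0.112) and at ZT 16.9 in aged control (adjusted p = 0.308). Camsap3 had amplitudes of 0.02 to 0.11 and adjusted p of at least 0.439.

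The Tec rhythm was close to the threshold but passed in few refits. Over all refits its adjusted p by limma ran from 0.0398 to 0.166 in aged control and from 0.0416 to 0.185 in adult CR. With 1 array left out, Tec passed in 3 of 24 fits in aged control and in 1 of 24 in adult CR. In aged control its adjusted p by limma was 0.0475 without the array of ZT 12 replicate 1, 0.0447 without ZT 4 replicate 1 and 0.0398 without ZT 4 replicate 2. In adult CR it was 0.045 without ZT 20 replicate 3 and 0.0416 with all arrays in 1 fit (background 5.6%). It was 0.0433 in aged control with the 5th percentile of each array as a covariate (background 6.97%). Amotl2 did not follow a cosine in adult CR (amplitude 0.19 ± 0.08 SE, adjusted p = 0.247). An F test for any difference among its 6 time points there gave an adjusted p of 0.0182 (background 5.75%), with the ZT 12 mean at 8.59 and the others between 7.85 and 8.19. Ly6g6c passed in aged CR with the balance of Xist and Y-linked genes, a marker of sex, as a covariate (adjusted p = 0.0203, background 7.61%). Over all refits by limma its adjusted p there reached 0.441, and that of Amotl2 in adult CR reached 0.385.

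**Figure D3:**
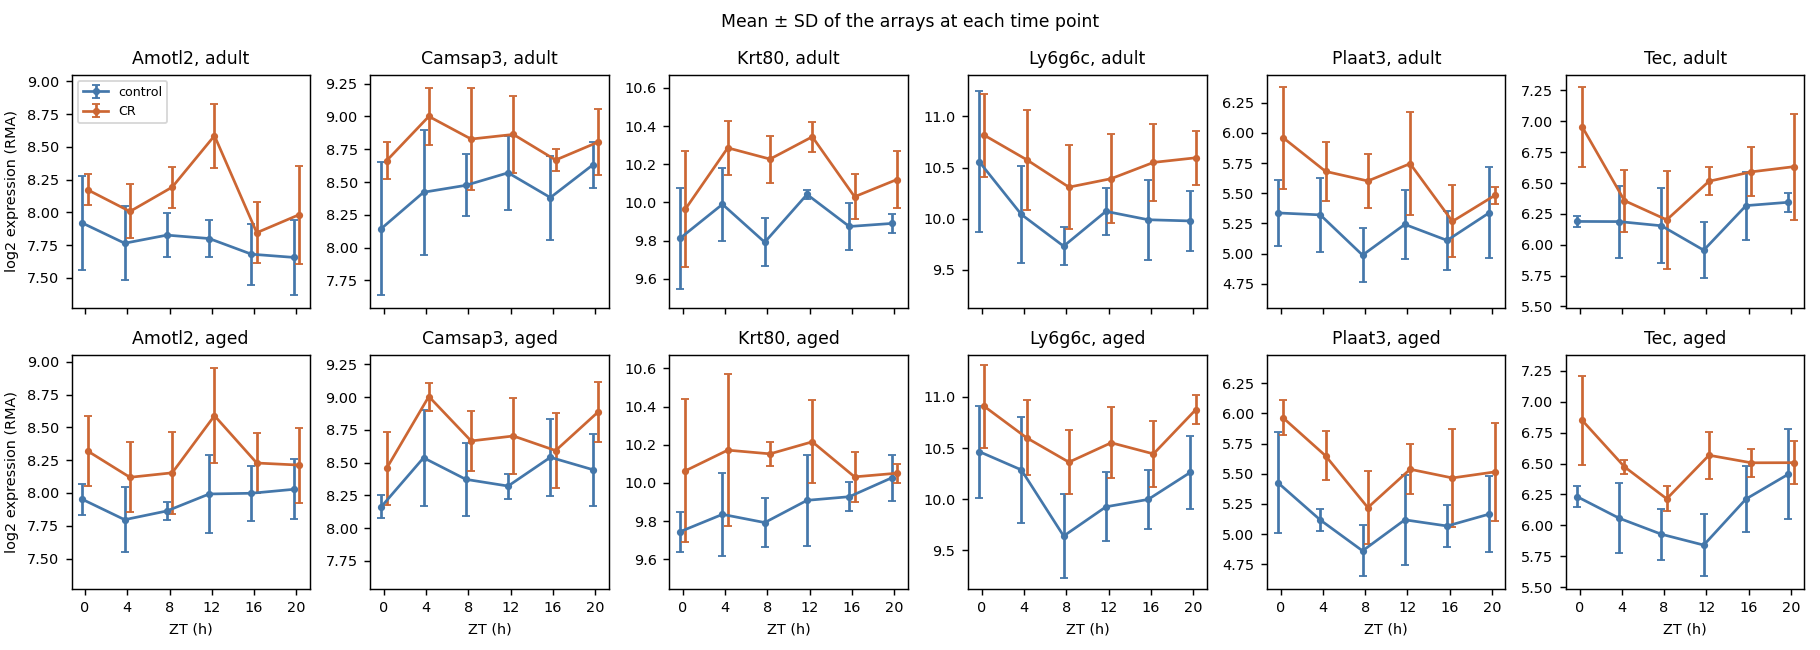
Mean ± SD of the arrays (vertical axis, log2 level) at each zeitgeber time (horizontal axis, h), with adult mice in the top row and aged mice in the bottom row. Blue is control diet and orange CR, with 3 to 6 arrays per point. The orange line lies above the blue one at all 72 pairs of points, by 0.78 for Amotl2 at ZT 12 and 0.77 for Tec at ZT 0 in adult mice, and by 0.73 for Tec at ZT 12 and 0.72 for Ly6g6c at ZT 8 in aged mice.

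Age was compared within each diet and was no part of how the genes were picked. None of the 6 passed on control diet, where 0% of genes did (0 by limma), or under CR, where 0.0224% (3 genes) did. On control diet 171 genes had an unadjusted limma p under 0.05, below the 669 expected by chance. Amotl2 had the largest difference, with aged mice 0.16 ± 0.07 (SE) above adult mice on control diet (unadjusted p = 0.0295, adjusted p = 1) and 0.14 ± 0.07 above them under CR (unadjusted p = 0.0448, adjusted p = 0.892). The other 5 genes differed with age by -0.10 (Plaat3) to 0.03 (Ly6g6c) on control diet and by -0.09 (Camsap3) to 0.08 (Ly6g6c) under CR, with SEs of 0.05 to 0.11.

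Whether the genes varied together was asked of arrays within a group, after each gene's mean in each of the 24 groups had been taken away. The diet difference that picked the genes is taken away there. Genes that vary together can still be picked together, because their diet differences then vary together too. The links are thus no independent support for the group. Of the 15 pairs, 14 had a Pearson r above 0 and 10 passed a two-sided permutation test within groups (adjusted p under 0.05 over the 15 pairs). All 10 were positive in 4 of 4 conditions, some of them barely so. The lowest were 0.02 for Camsap3 with Tec in aged CR and 0.04 for Amotl2 with Krt80 in adult CR. Links as strong as those that passed over all arrays were common among genes at large. Of the 80262 pairs of a member with another gene, 16.6% had an r at or above 0.242, the lowest that passed. These other genes had not been picked by the rule.

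Camsap3, Krt80 and Ly6g6c formed the closest trio. Camsap3 and Ly6g6c had r = 0.52 (rho = 0.50, adjusted p = 7.5e-05) over all arrays, with 0.66 and 0.53 in adult mice (control diet, then CR) and 0.50 and 0.34 in aged mice. Without the 2 arrays farthest from the median of Camsap3, r was 0.49. Krt80 and Ly6g6c had r = 0.50 (rho = 0.53, adjusted p = 7.5e-05), and 0.47 without the 2 farthest arrays. Their r was 0.73 and 0.45 in adult mice (control diet, then CR) and 0.23 and 0.67 in aged mice. Both of these p-values come from an unadjusted permutation p of 1e-05, the smallest these resamples can give. Among all genes tested, 0.419% were as closely tied to Ly6g6c as Camsap3 was, and 1.2% as closely to Camsap3 as Ly6g6c was. For Krt80 and Ly6g6c the shares were 0.516% from the side of Ly6g6c and 1.51% from that of Krt80. Camsap3 and Krt80 had r = 0.44 (rho = 0.50, permutation adjusted p = 0.0002), where 3.64% of genes were as closely tied to Camsap3 and 3.31% to Krt80. These 3 pairs had the highest r of the 15.

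Amotl2 followed with Camsap3 (r = 0.35, rho = 0.36, permutation adjusted p = 0.00603), where 2.83% of genes were as closely tied to Amotl2 and 9.19% to Camsap3. Plaat3 was tied to Krt80 (r = 0.35, rho = 0.34, permutation adjusted p = 0.00128) and to Ly6g6c (r = 0.30, rho = 0.31, permutation adjusted p = 0.014). Of all genes, 13.7% and 18.7% were as closely tied to Plaat3 as these, 7.96% as closely to Krt80 and 5.53% as closely to Ly6g6c. After a second quantile normalisation both pairs missed the threshold, at r = 0.10 (permutation adjusted p = 0.461) and 0.23 (permutation adjusted p = 0.0776), and Amotl2 with Plaat3 turned to -0.02 (permutation adjusted p = 0.954). With the mean of differentiated epidermis markers as a covariate, Plaat3 with Ly6g6c fell to r = 0.15 (permutation adjusted p = 0.221). Amotl2 passed with Krt80 (r = 0.27), Ly6g6c (r = 0.28) and Plaat3 (r = 0.24) at permutation adjusted p of 0.0298 to 0.0352. All 3 missed the threshold without adult CR ZT 12 replicate 5 (r = 0.26, 0.24 and 0.21 in that order) and without aged CR ZT 12 replicate 4 (r = 0.25, 0.25 and 0.23). Tec passed only with Camsap3 among these pairs (r = 0.28, rho = 0.28, permutation adjusted p = 0.0298). That pair missed the threshold without adult CR ZT 20 replicate 2 (r = 0.23), adult CR ZT 8 replicate 1 (0.22) or adult control ZT 16 replicate 3 (0.25). It also missed it after quantile normalisation (r = 0.19, permutation adjusted p = 0.214). The r of Tec with Krt80 was -0.04 (rho = 0.09), from -0.40 in aged CR to 0.24 in aged control. In all, 6 pairs passed after quantile normalisation and 5 with that covariate.

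**Figure D4:**
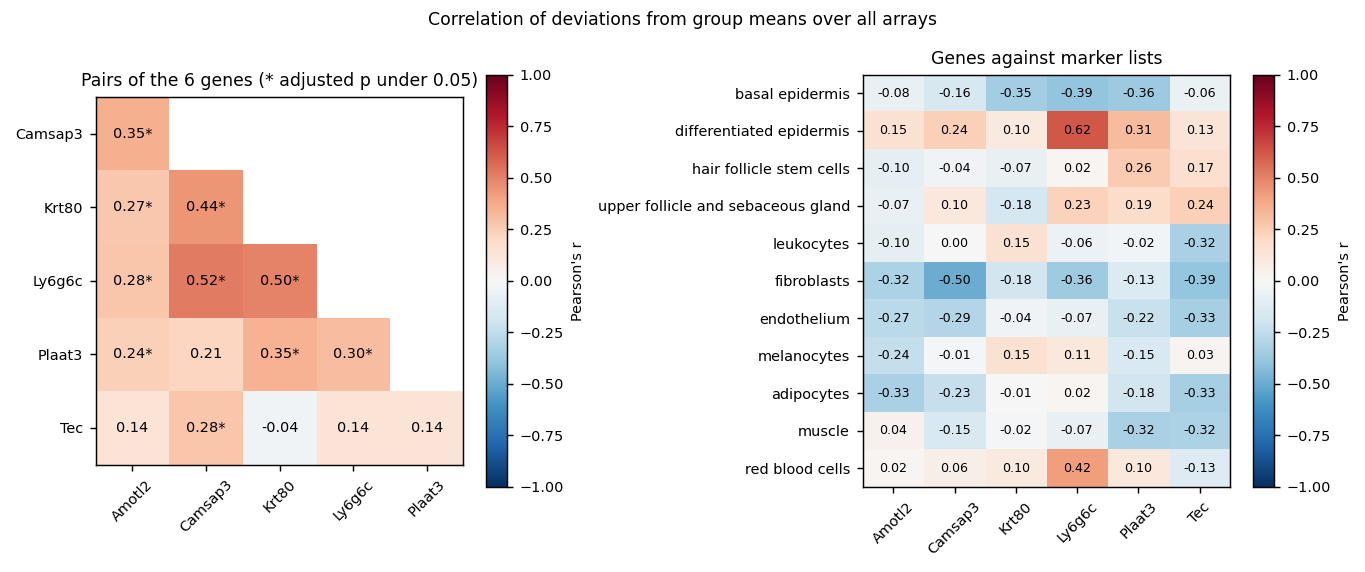
Pearson r of deviations from group means over all arrays, from blue (-1) over white to red (1). The left panel shows the 15 pairs of the 6 genes, with an asterisk where the adjusted permutation p was under 0.05, and the right panel shows each gene (horizontal axis) against the mean of each marker list (vertical axis). Camsap3, Krt80 and Ly6g6c share the darkest cells of the left panel (0.44 to 0.52), and Ly6g6c with differentiated epidermis is the darkest of the right (0.62).

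The genes that varied most like each member were named as the 3 with the highest r over all arrays among all genes tested. Ly6g6c was closest to Elovl4 (r = 0.87), which makes very long chain fatty acids of the skin barrier, Krtdap (0.86), a keratinocyte differentiation protein, and Cyp4f39 (0.74), a fatty acid hydroxylase. Camsap3 was closest to Kdm5b (0.74), Acvr1b (0.67) and Ly6e (0.66), and Krt80 to Tlcd3a (0.67), Calm3 (0.65) and Trim65 (0.65). Plaat3 was closest to Wdr92 (0.64), Smpdl3a (0.63) and Senp8 (0.62). Tec was closest to Ccdc120 (0.61), the Hedgehog receptor Ptch1 (0.57) and Sash1 (0.57), and Amotl2 to Zgpat (0.56), Snapc3 (0.56) and Tent5a (0.53). None of these 18 companions passed for CR at either age by limma (adjusted p of 0.214 or more in adult and 0.235 or more in aged mice). Over all genes tested only 0.553% passed in adult and 0.276% in aged mice, so nothing is read from this. Elovl4 differed by 0.12 ± 0.15 (SE) and 0.39 ± 0.16, Krtdap by 0.34 ± 0.15 and 0.34 ± 0.16.

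Basal epidermis markers, among them Krt5, Krt14 and Itga6, were all above the brightness limit (10 of 10) and their mean had a median of 11.6 in each condition. Of 9 hair follicle stem cell markers 3 (Cd34, Lgr5 and Lhx2) were under the limit, and 6 were above it. Of 11 leukocyte markers 3 (Ptprc, Cd207 and Lyz2) were under it and 8 above, and of 6 endothelial markers 4 (Cdh5, Vwf, Kdr and Tek) were under it. In such bulk samples, fewer cells of a type and less RNA per cell cannot be told apart. Of 66 relations between a member and the mean of a marker list, 15 passed the within-group permutation test (adjusted over the 66). Such links were common among genes at large: of the pairs of a marker list with a gene outside it and outside the 6, 40.2% had an r of at least 0.314 in size, the smallest that passed.

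Markers of differentiated epidermis moved with Ly6g6c, at r = 0.62 (rho = 0.59, permutation adjusted p = 0.00066), and with Plaat3 at 0.31 (rho = 0.22, permutation adjusted p = 0.0346, by rho 0.135). The r of Plaat3 lay at about the size that 40.2% of such pairs reached among genes at large. The mean of this list ran from 7.42 over a median of 7.65 to 7.87 in adult control and from 7.42 over 7.72 to 8.06 in adult CR. In aged mice it ran from 7.42 over 7.62 to 7.95 on control diet and from 7.56 over 7.70 to 8.11 under CR, with Krt2 and Flg under the brightness limit. None of its 17 tested genes passed for CR at either age, where 0.553% of all genes passed in adult and 0.276% in aged mice. Their median difference was 0.08 in adult and 0.06 in aged mice, beside 0.02 and 0.00 over all genes. With the list's mean as a covariate, the Ly6g6c difference was 0.29 in place of 0.48 in adult and 0.41 in place of 0.53 in aged mice. Camsap3, too, was then no longer called at both ages, but its difference changed little. It was 0.32 in place of 0.37 in adult and 0.29 in place of 0.32 in aged mice. Camsap3 also lost its call in 31 of 96 fits with 1 array left out. The 5 genes other than Ly6g6c kept differences of 0.25 (Krt80) to 0.33 (Amotl2, Plaat3 and Tec) in adult mice. Their aged differences were then 0.23 (Krt80) to 0.39 (Plaat3 and Tec). The part of differentiated cells in these differences was not tested.

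Camsap3 moved against the fibroblast list (r = -0.50, rho = -0.44, permutation adjusted p = 0.00066), as did Tec (-0.39), Ly6g6c (-0.36) and Amotl2 (-0.32). The mean of the fibroblast list had medians of 5.97 and 5.93 in adult mice (control diet, then CR) and of 5.97 and 5.85 in aged mice, within a range of 5.62 to 6.32. Its member Sparc, a matrix protein, fell by 0.43 (SE 0.09) under CR in aged mice (limma adjusted p = 0.0138, adult -0.17 ± 0.09, adjusted p = 0.513), 1 call among 5 tested fibroblast genes, where 0.194% of all genes fell. The median difference of the 5 was -0.09 in adult and -0.02 in aged mice, where the highest was 0.04. The lowest aged difference of the fibroblast list, -0.56, belonged to another gene, which did not pass. The hair follicle stem cell list had the same lowest value. The part of fibroblasts in the Camsap3 difference was not tested. Tec, a kinase known from blood cells, moved against the leukocyte list (r = -0.32, rho = -0.32, permutation adjusted p = 0.017). This r, like that of Amotl2 with the fibroblast list, lay near 0.314 in size, which 40.2% of such pairs reached among genes at large. The leukocyte mean had medians of 5.44 and 5.43 in adult mice (control diet, then CR) and of 5.43 and 5.39 in aged mice. Ly6g6c went with the red blood cell list of 2 genes (r = 0.42, rho = 0.39, permutation adjusted p = 0.00308), whose medians were 6.33, 6.38, 6.33 and 6.50 in the same order, and the part of these cells was not tested.

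Genes that work with the 6 were read from lists of their pathways, with the members themselves left out. Over all genes tested only 0.553% passed for CR in adult and 0.276% in aged mice. Nothing is therefore read from a short list without a call. Around Amotl2, none of 17 tested Hippo pathway genes passed for CR at either age (median difference 0.02 in adult and in aged mice). Among 17 tested targets of YAP and TAZ none rose and 2 fell in adult mice, where 0.232% of all genes fell. The median difference of the list was 0.00 in adult and 0.03 in aged mice. Those that fell were Igfbp3, a binding protein of insulin-like growth factors, at -0.37 ± 0.07 (SE, limma adjusted p = 0.00104), and Myof, a membrane repair protein, at -0.29 ± 0.07 (adjusted p = 0.0236). Their aged differences were -0.23 ± 0.07 (adjusted p = 0.173) and -0.16 ± 0.07 (adjusted p = 0.685). Amotl2, itself such a target, differed in the opposite direction to these 2. The targets that did not pass went either way, from -0.53 (Gadd45a) to 0.22 (Lats2) in adult mice. Around Camsap3 none of 13 genes of microtubule minus ends passed, with medians of 0.00 and 0.05. Around Krt80 none of 15 other type II keratins passed, with medians of 0.04 and 0.06 and a range of -0.08 to 0.61 in adult mice.

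In the Ly6/uPAR family 1 of 17 tested genes rose in adult mice, where 0.321% of all genes rose, and none fell. It was Cd59a, an inhibitor of complement, at 0.38 ± 0.07 (SE, limma adjusted p = 0.00104), with 0.27 ± 0.07 (adjusted p = 0.0814) in aged mice. None of 15 phospholipases and lipid release genes around Plaat3 passed (medians 0.02 and 0.00), and none of 13 Tec family kinases and partners (medians 0.01 and 0.00). Of lists tied to the diet itself, 1 of 11 fasting and PPAR targets rose in adult mice, where 0.321% of all genes rose. This was Acot1, an acyl-CoA thioesterase, at 0.50 ± 0.12 (SE, limma adjusted p = 0.0265), with 0.36 ± 0.12 (adjusted p = 0.335) in aged mice. None of 14 glucocorticoid targets and none of 16 core clock genes passed for CR at either age. Over the 10 lists the median difference lay between -0.07 (core clock, aged mice) and 0.14 (fasting and PPAR targets, adult mice).

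**Figure D5:**
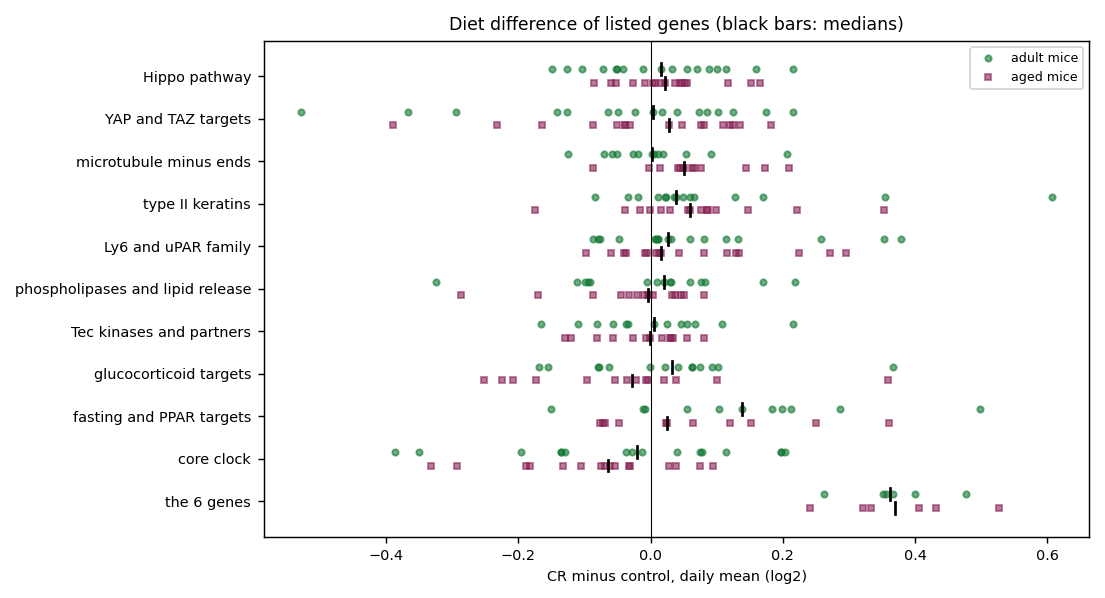
CR minus control daily mean (horizontal axis, log2) of each tested gene of 10 pathway lists and of the 6 genes themselves (vertical axis), with circles for adult and squares for aged mice. Black bars are list medians. The list medians lie near 0, up to 0.14 for fasting and PPAR targets in adult mice, while the 6 genes, which were picked for this difference, lie between 0.24 and 0.53.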

How the data were processed

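Each deposited value is a log2 level that the authors obtained with RMA (its version is not given in the sources used here), per the submitters' processing notes. RMA puts arrays on a common distribution, so levels are relative, and the number of arrays limits precision. They were used as deposited (3.19 to 13.07, array medians 5.47 to 5.71). No 2 arrays were identical. Of 45140 probe sets, 28898 carried 1 gene symbol, 551 several and 15588 none, and 103 were controls. The brightest probe set of 1 symbol stood for a gene. Genes with a mean under the 30th percentile (4.73) were not tested.

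Diet, age and diet-by-time contrasts came from 1 limma 3.58.1 fit (R 4.3.3) with a mean for each of 24 groups, and a daily mean is the average over 6 time points. Rhythms were fitted per condition. P-values were adjusted over 13383 genes (Benjamini-Hochberg), and the threshold was 0.05. Correlations used 100000 permutations within groups. The tests were tested on simulated data. The members, gene lists and marker lists were chosen with earlier results of these data known. Genes were named by rule: the 6 members, up to 4 passing genes of a pathway list, and the 3 genes most like each member. Sparc was named after its value had been seen. Alternatives were other filters, centring, normalisation, probe set rule, covariates, array subsets, a replicate block and each array left out of groups of up to 5. The covariate of differentiated epidermis markers was added after seeing the data.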

Additional observations from a re-analysis of the deposited data

Results flagged for a closer look

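Over 126 groups of a gene with 4 arrays or more, 6 held an array far from the others for the group's range, where about 1 in 20 groups (6.3) does so by chance. Amotl2 had 3 of them. Adult control ZT 20 replicate 3 read 7.23, below the other arrays at 7.75 to 7.83. Aged CR ZT 12 replicate 4 read 9.13, above the others at 8.37 to 8.46, and aged control ZT 12 replicate 4 read 8.44, above the others at 7.81 to 7.90. Krt80 in aged CR ZT 20 replicate 5 read 9.96, below the others, which lay within 10.07 and 10.08. Ly6g6c in aged CR ZT 8 replicate 1 read 9.89, below the others at 10.50 to 10.55. Tec in adult CR ZT 20 replicate 2 read 7.37, above the others at 6.27 to 6.58. No array stood apart in more than 1 of the genes.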

How the results depend on the processing

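The adult diet difference of the 6 genes and the aged one stayed above 0 in every fit run. The genes were picked for that sign on these same arrays, so nothing is read from it. Krt80 was lowest, at 0.25 and 0.23 over the planned and added alternatives other than leaving out 1 array, and at 0.2412 and 0.2039 with 1 array left out. All 6 genes stayed called at both ages in 65 of 96 fits with 1 array left out, Camsap3 being lost in 31 and Krt80 in 1. Camsap3 was also lost with no filter, with arrays centred on their medians and with the replicate block, Krt80 with the arrays of 1 age alone, and the median filter drops Plaat3 from testing. The number of genes higher at both ages was 4 to 10 over the alternatives.

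Counts of genes called moved as follows. With arrays centred on their medians, 46 passed for CR in adult mice in place of 74. With the 5th percentile of each array as a covariate, 131 passed for CR in adult and 84 in aged mice (37), 1 for age on control diet (0), 9 for age under CR (3), 39 for diet by time in aged mice (19), and 843, 1665 and 1426 for rhythms in adult control (156), adult CR (1082) and aged CR (652). Quantile normalisation gave 1 and 7 for age on control diet and under CR, 31 for diet by time in aged mice, 268 and 1061 for rhythms in adult control and aged CR, and 6 pairs (10). The mean of all probe sets gave 10 for age under CR and 17 and 30 for diet by time in adult (10) and aged mice. Age under CR had 5 with no filter and 7 with the sex covariate, which gave 1018 rhythms in aged CR. The differentiated marker covariate gave 319 there and 5 pairs. Any difference among time points gave 534 in adult control, and all arrays in 1 fit gave 888 there and 998 in aged CR.

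With 1 array left out the ranges were 37 to 1.0e+02 (CR, adult, the upper end rounded), 22 to 55 (CR, aged), 0 to 1 (age, control), 0 to 9 (age, CR), 7 to 52 and 15 to 25 (diet by time, adult and aged), 87 to 212, 754 to 1209, 345 to 1138 and 347 to 987 (rhythms in adult control, adult CR, aged control and aged CR) and 7 to 11 pairs. Pairs lost in single fits were Amotl2 with Plaat3 (9 arrays), Krt80 (5) and Ly6g6c (2) and Camsap3 with Tec (3), at r of 0.20 to 0.26. Camsap3 with Plaat3 was gained in 22.

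Some values changed sign. Age on control diet was -0.0029 for Ly6g6c with the differentiated marker covariate and -0.0091 to -0.0034 without single arrays (-0.0091 to 0.0762 over all). Age under CR was 0.0087 to 0.0098 for Tec without single arrays (-0.0441 to 0.0098 over all). Krt80 with Tec had r = 0.0662 with centred arrays and 0.0104 to 0.0562 without single arrays (-0.0922 to 0.0562 over all), and Amotl2 with Plaat3, a passing pair at 0.24, turned to -0.0218 after quantile normalisation. The causes were not tested.

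Replicate numbers were not taken to pair the arrays. Of 46 pairs of diets with the same number, 19 had deviations correlated above 0.1 (median 0.0167). Of 48 pairs of ages with the same number, 19 did (median 0.0567). No pairs of different numbers stand beside these, so whether the numbers pair arrays was not tested. With the replicate block, 52 and 25 genes passed for CR in adult and aged mice, 0 and 9 for age on control diet and under CR, and 8 and 17 for diet by time. Rhythms within a condition were not blocked.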
